A study of Mus musculus with 661 samples.

Results

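Hyaluronan is made, cut, held in the matrix and recognised at the cell surface by a small group of proteins, and 9 of their genes are described here. They are the synthases Has1, Has2 and Has3, the hyaluronidases Hyal1 and Hyal2, the matrix proteins Vcan and Tnfaip6, and the receptors Cd44 and Lyve1. The members were selected by gene symbol for these roles, with earlier results of the same cells known, among them the levels of Has1 in endothelial cells of old mice. They are 9 of 45808 genes in the count table. Their values are therefore a description, and no test was made on them.

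Hyaluronan is a long sugar polymer without sulfate. Synthases in the plasma membrane build it from UDP-glucuronic acid and UDP-N-acetylglucosamine and push the growing chain out of the cell, where proteoglycans and link proteins bind it into a hydrated coat. Hyaluronidases cut it into shorter chains, endothelial cells of sinusoids and lymphatic vessels take it up, and in bone marrow CD44 on blood and stromal cells binds it.

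The study asked how the stroma of bone marrow differs between young and old mice, and sequenced sorted single cells in wells. The chemistry followed Smart-Seq2 with whole-transcript reads and no molecular identifiers. The mice were C57BL/6 wild type, young at about 2 and old at about 24 months of age, with no treatment given in the labels. Every gate left out cells with Ter119 or CD45 on their surface. The 661 cells belonged to 6 populations and 23 clusters made by the authors with ICGS, a method that groups cells by guide genes.

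Within the endosteum, MSC-S were mesenchymal cells with Sca-1 and CD51, mOPr lacked Sca-1 and carried CD51 and PDGFRα, and OPr carried CD51 without Sca-1 or PDGFRα. The gates of mOPr and OPr also left out cells with LepR on their surface. MSC-L were central marrow cells with CD51, PDGFRα and LepR and without Sca-1. Endothelial cells with CD31 were defined as AEC in the endosteum (high Sca-1, low CD105) and as SEC in the central marrow (low Sca-1, high CD105). For the sequenced cells the paper also speaks of endosteal EC, in which AEC dominated, and marrow EC, which its index sorting showed to be mostly SEC. Whether the narrower gates were used for these wells is thus not clear. Cells of young and old mice numbered 53 and 58 for MSC-L, 59 and 59 for MSC-S, 26 and 26 for mOPr, 44 and 29 for OPr, 84 and 82 for AEC, and 70 and 71 for SEC. Nuclear counts per cell ran from 57517 to 1488550 with a median of 416359. The labels do not name the mouse of a cell, so each age of a population was 1 sample. Library numbers fell into 3 ranges, taken here as possible batches. Mesenchymal cells were in ranges 1 and 2, AEC in all 3, and SEC in range 3 alone.

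Markers of each gate were checked first. In old and young MSC-L all 5 of their markers were above 10 counts-per-million of nuclear counts (CPM), with Cxcl12 at 48750 CPM in young cells. All 5 MSC-S markers and all 5 AEC and SEC markers passed the same level in both ages of their own population, and so did the 5 osteoblast-lineage markers in OPr and mOPr. The MSC-S and osteoblast-lineage lists passed in full only there. All 5 AEC markers also passed in both ages of SEC, and all 5 SEC markers in young AEC. All 5 MSC-L markers also passed in mOPr, OPr and SEC of both ages and in young MSC-S. Passing this level thus did not set those gates apart. The sorts were not pure by transcript. Of 29 old OPr, 8 carried at least 7 of 15 blood markers at 10 CPM or more, against 0 of 44 young OPr. The blood list summed to 6208 CPM in old OPr and 132 CPM in young OPr, with Plek highest at 971 CPM, and Ptprc, which encodes CD45, was at 384 CPM in old OPr although the gate removed cells with CD45 protein. At least 7 of 15 mesenchymal markers were carried by 12 of 70 young SEC, 6 of 71 old SEC, 2 of 84 young AEC and 2 of 82 old AEC. In the other direction, 1 of 29 old OPr carried at least 7 of 15 endothelial markers and no other mesenchymal cell did.

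Cartilage and joint-lining transcripts were also present. The list of synovial lining markers was led in MSC-S by Prg4, which encodes lubricin, at 50938 CPM in young and 57873 CPM in old cells. Prg4 was at 12070 CPM in young and 9.59 CPM in old OPr, and at 48.2 and 1028 CPM in AEC. A list of 9 chondrocyte markers summed to 51606 CPM in young OPr, 7077 CPM in old OPr, 8190 CPM in young MSC-S and 2927 CPM in old MSC-S. In mOPr it summed to 12061 CPM in young and 743 CPM in old cells, and the synovial list to 5246 and 126 CPM. Macrophage markers gave no like signal in MSC-S, where the list summed to 9.38 CPM in young and 9.16 CPM in old cells. In OPr that list summed to 61.9 and 249 CPM, led in old cells by Cd68 at 114 CPM, with Mrc1, C1qa, C1qb, C1qc and Vsig4 at 0. Mertk was at 43.5 CPM in young and 100 CPM in old OPr, Csf1r at 0.886 and 22.2 CPM, and Adgre1 at 0 and 9.35 CPM. The part of these other cell types in the hyaluronan values was not tested. Many groups were small enough for 1 cell to set a level, so levels without the highest cell are given below for many of the groups where that cell moved them most.

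Across the 9 genes, Has1 was the most abundant transcript per length in MSC-S and Hyal2 the most abundant in SEC. Divided by exon length (RPKM, the CPM per 1000 exon bases), young MSC-S held Has1 at 518, Tnfaip6 at 205, Cd44 at 57.9, Vcan at 23.5, Has2 at 10.3 and Hyal2 at 5.43. Old MSC-S held Has1 at 797, Cd44 at 107, Tnfaip6 at 83.2, Vcan at 27.4, Hyal2 at 8.80 and Has2 at 8.39. Hyal1, Lyve1 and Has3 were under 2 RPKM in both ages. SEC held Hyal2 at 62.2 RPKM in young and 79.9 RPKM in old cells, Hyal1 at 3.71 and 5.62, Cd44 at 1.75 and 1.65, and each other member under 1. Among these genes MSC-S were thus high in Has1, Tnfaip6, Cd44 and Vcan, and SEC in Hyal2.

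**Figure D1:**
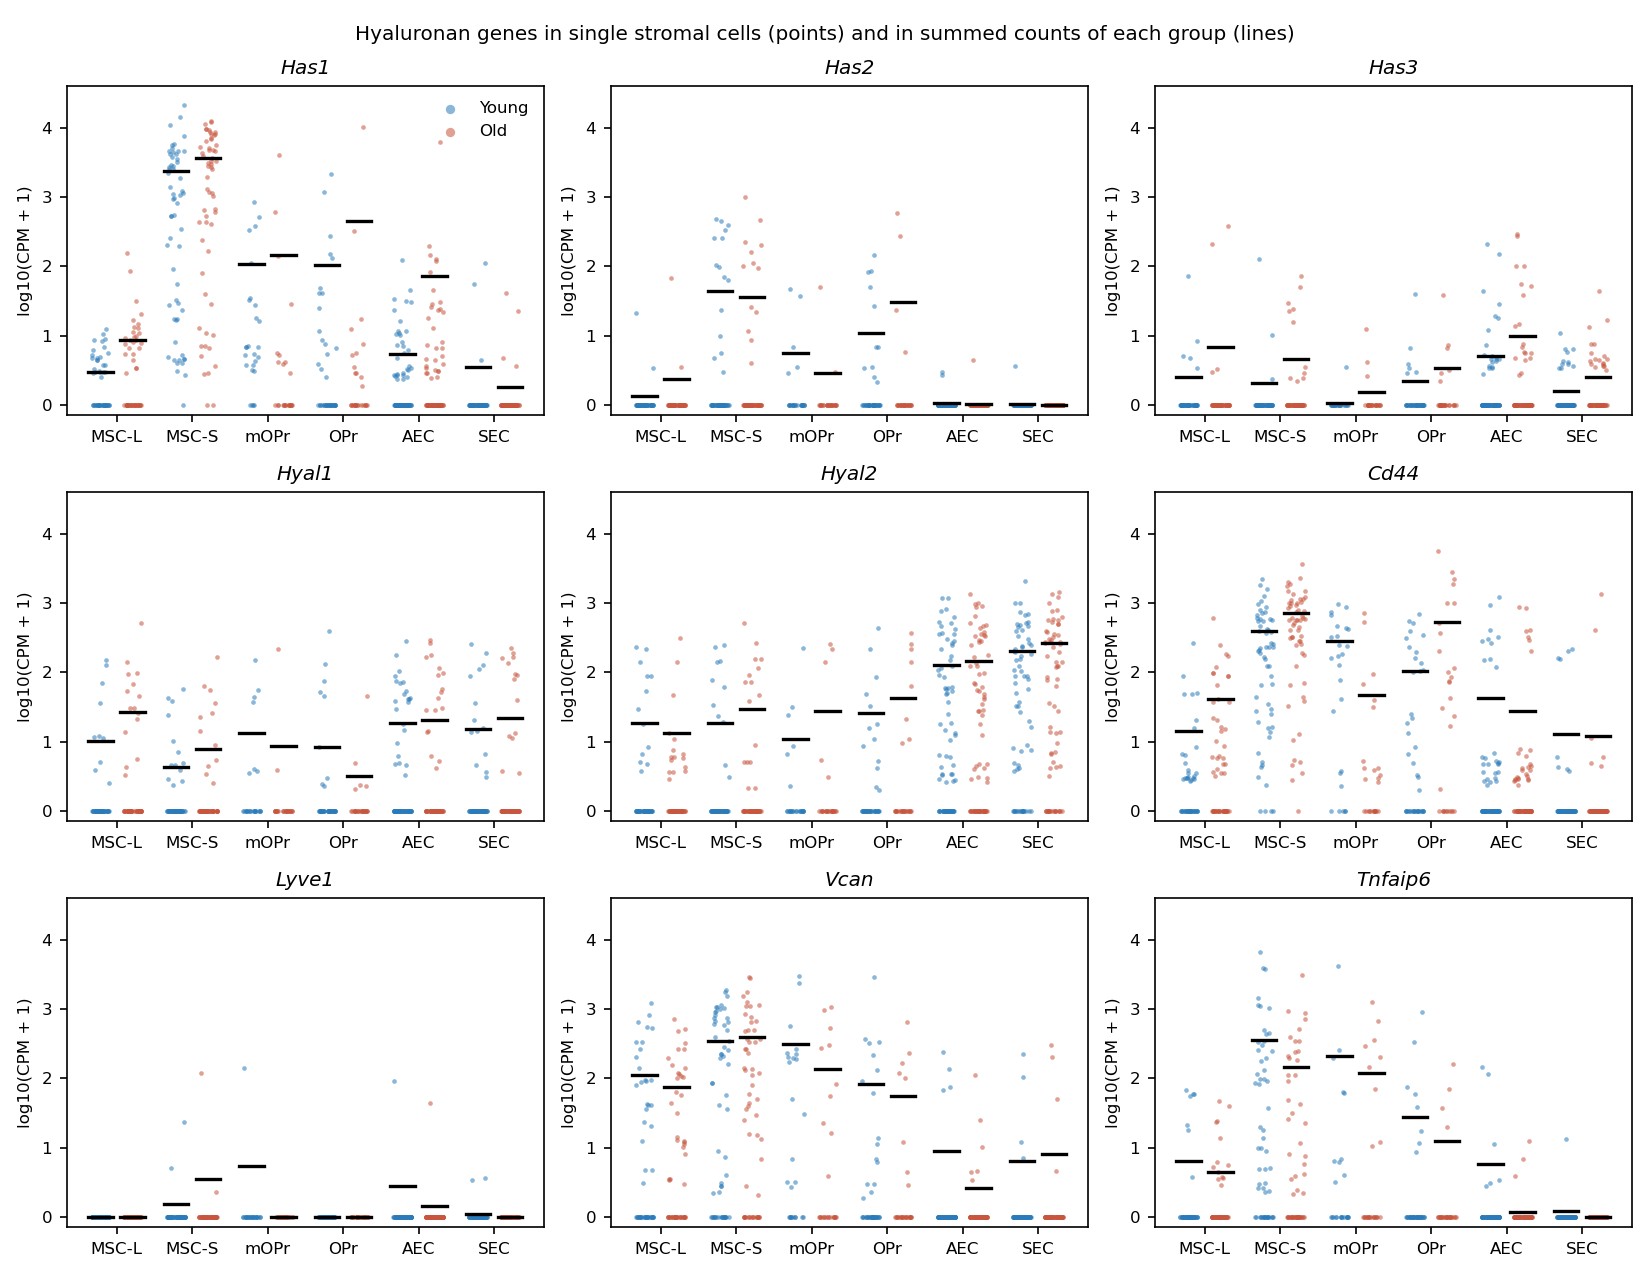
Level of each of the 9 genes in every cell (points, log10 of CPM plus 1) for young and old cells of the 6 sorted populations, with the level of the summed counts of each group as a black line. Has1 and Cd44 were spread over nearly all MSC-S, Hyal2 lay highest in SEC and AEC, and Lyve1 had counts in 9 of 661 cells.

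Has1 encodes the synthase with the highest counts. In young MSC-S its summed level was 2340 CPM (95% Poisson interval 2324 to 2357), and single cells ran from 0 through a median of 933 to 21193 CPM. In old MSC-S it was 3601 CPM (3583 to 3620), with cells from 0 through a median of 2490 to 12640 CPM. These intervals cover counting error only, since reads without molecular identifiers are not independent molecules. The intervals of all shares below treat cells as separate draws and do not cover differences between mice. Counts of Has1 were found in 58 of 59 young MSC-S (98.3%, Clopper-Pearson interval 90.9% to 99.96%) and in 57 of 59 old ones, and levels of at least 1000 CPM in 28 and 35 cells. The ages overlapped up to the highest old cell, and 2 young cells lay above it. The old over young log2 ratio of the sums was 0.62, but it was -1.65 in library range 1 and 1.11 in range 2, so its sign differed between the ranges.

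Outside MSC-S, Has1 was lower, and in old OPr, old mOPr and old AEC it rested on a few cells. Summed levels were 450.5 CPM in old OPr, 143 in old mOPr, 106 in young mOPr, 105 in young OPr, 72.7 in old AEC, 7.74 in old MSC-L, 4.39 in young AEC, 2.55 in young SEC, 2.02 in young MSC-L and 0.820 in old SEC. In this order young mOPr and young OPr, and young SEC and young MSC-L, had overlapping intervals. A single cell held 96.4% of the Has1 counts of old OPr, 81.1% of those of old mOPr and 82.3% of those of old AEC. Without their highest cells these groups stood at 16.7, 27.9 and 12.97 CPM, young OPr at 59.2, old MSC-L at 5.01 and young SEC at 1.02 CPM. The median cell was at 0 in each group outside MSC-S except young mOPr, where it was 5.80 CPM. In old AEC the 2 cells with at least 7 mesenchymal markers stood at 2416 CPM of Has1 and the other 80 cells at 13.2 CPM.

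Has2 and Has3 encode the other synthases. Has2 was at 43.7 CPM in young and 35.6 CPM in old MSC-S, with counts in 15 and 13 of 59 cells and highest cells of 487 and 986 CPM (22.3 CPM in old MSC-S without the highest). In OPr it was at 9.92 CPM in young and 29.2 CPM in old cells, in the latter with 74.8% of counts in 1 cell (6.40 and 7.63 CPM without the highest cells). Endothelial cells had next to none, with 3 counts in 166 AEC and 1 count in 141 SEC, and 0 of 71 old SEC had a count. A cell without a count may still express the gene. Has3 was low in all populations and highest in AEC, at 4.05 CPM in young and 8.95 CPM in old cells, with counts in 21 of 84 and 19 of 82 cells (5.41 CPM in old AEC without the highest cell). Most cells with a synthase transcript at 10 CPM or more had 1 of the 3, as did 35 of 59 young and 39 of 59 old MSC-S. A further 12 young and 10 old MSC-S had 2 of them, and 2 old MSC-S had all 3. All 11 young MSC-S with Has2 at that level also had Has1, as did 8 of 11 old ones.

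The sugars for these synthases come from a list of 8 supply genes. MSC-S were rich in Gfpt2, an isoform of the entry enzyme of the hexosamine pathway, at 1482 CPM in young and 1947 CPM in old cells. Ugdh, which makes UDP-glucuronic acid, was at 1175 and 1480 CPM, and Uap1, which makes UDP-N-acetylglucosamine, at 882 and 1108 CPM. Summed over the list, MSC-S reached 4159 and 5104 CPM, mOPr 1955 and 1172, OPr 1445 and 741, AEC 537 and 667, MSC-L 329 and 346, and SEC 168 and 190 CPM in young and old cells. The supply list thus had its highest sums where Has1 was highest. Of 95 MSC-S with Has1 at 10 CPM or more, 93 had Gfpt2 at that level (97.9%, against 90.7% of all 118 MSC-S) and 88 had Ugdh (92.6%, against 88.1%). Ugdh, Uap1, Gfpt2 and Has1 are among the authors' guide genes for the clusters.

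**Figure D2:**
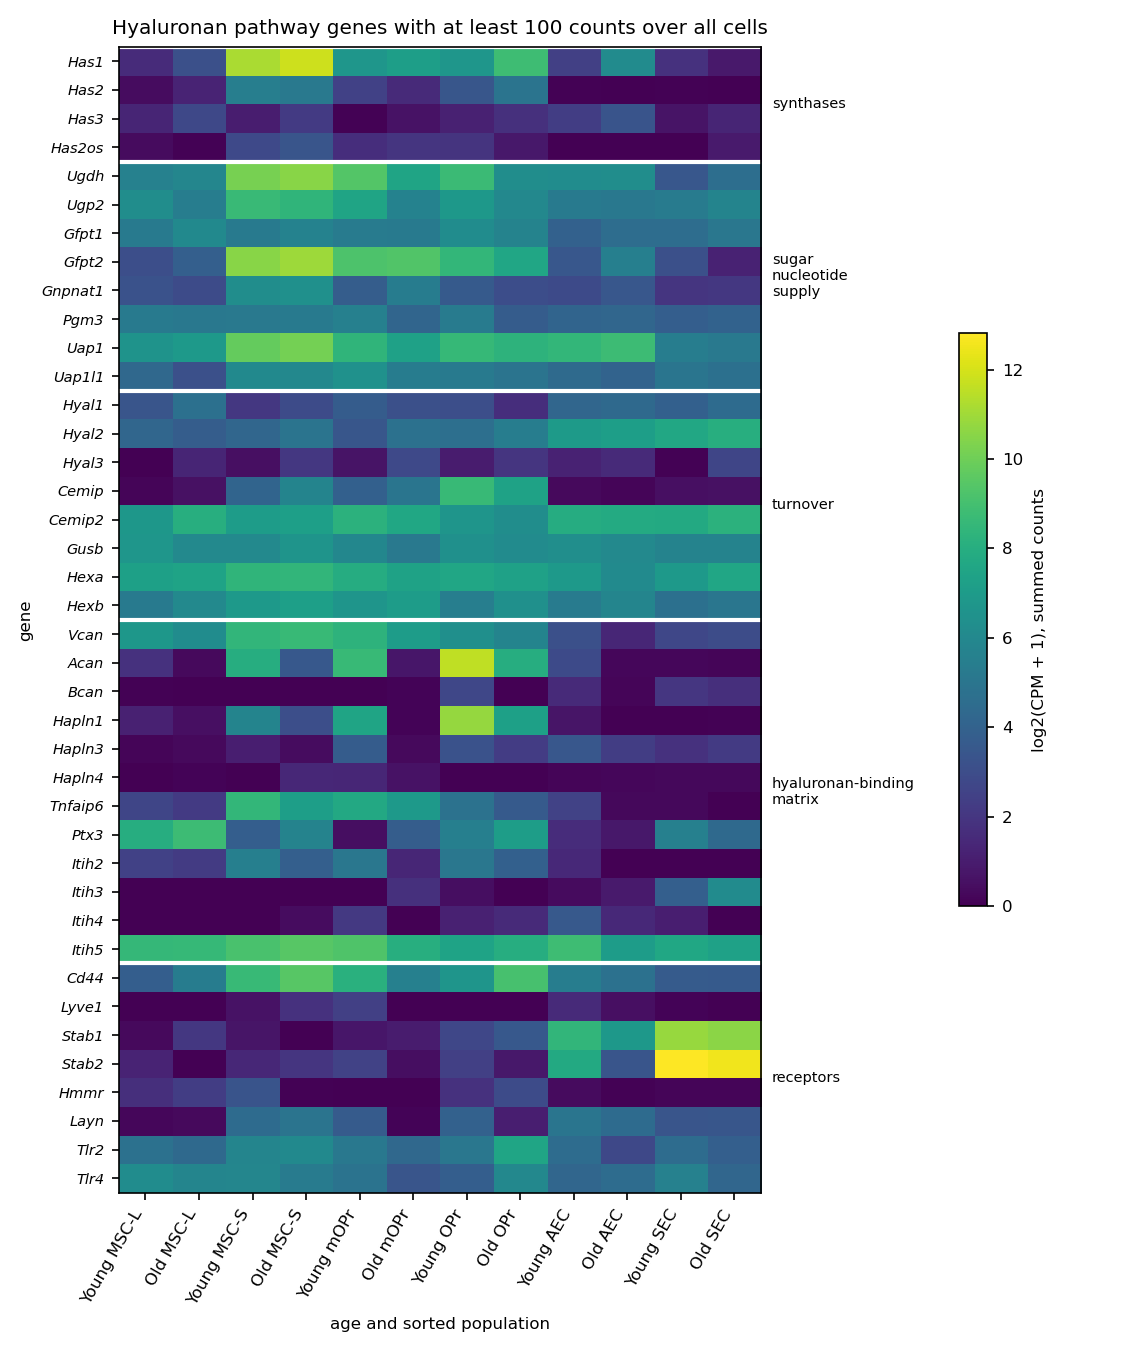
Level of the pathway genes with at least 100 counts over all cells (log2 of CPM plus 1, summed counts) in young and old cells of each sorted population. Supply genes and Has1 were highest in MSC-S, Acan and Hapln1 in young OPr, and Stab1, Stab2 and Hyal2 in SEC.

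Turnover begins with Hyal2, a hyaluronidase anchored at the cell surface that cuts long chains. It was at 205 CPM in young SEC (199 to 211), with cells from 0 through a median of 62.95 to 2048 CPM, and at 263 CPM in old SEC (256 to 270), with a median of 76.1 and a highest cell of 1451 CPM. In AEC it was at 127 CPM in young and 145 CPM in old cells, with medians of 4.33 and 7.69 CPM. Mesenchymal populations ranged from 9.80 CPM in young mOPr (2.69 without the highest cell) to 42.1 CPM in old OPr, all below each endothelial group. Counts of Hyal2 were found in 52 of 70 young and 53 of 71 old SEC, and in 11 of 59 young and 16 of 59 old MSC-S.

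Hyal1, the lysosomal hyaluronidase, was lower. Its summed levels ran from 2.15 CPM in old OPr to 25.5 CPM in old MSC-L, but 1 cell held 87.0% and 54.9% of these counts, and without it the levels were 0.293 and 11.8 CPM, the latter below AEC and old SEC on the same footing. In old mOPr 1 cell held 98.9% of the counts, and the level of 7.61 CPM became 0.0830 CPM without it, the lowest on that footing. AEC and SEC of both ages lay between 14.0 and 21.2 CPM over all cells. Of its exon bases, 51.9% overlap Hyal3 and Naa80 on the same strand, so its counts are uncertain, as reads shared by genes may have been left out. Hyal3, the neighbour, was at 6.17 CPM or less in every group. Hyal4 and Spam1 had 3 and 5 counts in all cells.

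Cemip, a protein that breaks down hyaluronan by another route, was mainly an OPr transcript, at 401 CPM in young and 164 CPM in old cells, and at 16.3 and 53.4 CPM in MSC-S. Without the highest cells these were 260 and 36.7 CPM in OPr and 33.2 CPM in old MSC-S. Cemip2, a membrane protein of the same family, was found in all populations, from 76.3 CPM in old OPr to 302 CPM in young mOPr, and in MSC-L it was at 109 CPM in young and 262 CPM in old cells. The lysosomal glycosidases that finish the breakdown were detected throughout, with Hexa between 68.9 CPM in old AEC and 341 CPM in old MSC-S, and Gusb between 34.8 CPM in old mOPr (12.5 without the highest cell) and 106 CPM.

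In the matrix group, Vcan encodes versican, a large proteoglycan that binds hyaluronan. It was at 340 CPM in young MSC-S (333 to 346), with cells from 0 through a median of 57.4 to 1857 CPM, and at 397 CPM in old MSC-S (390 to 403), with a median of 49.3 and a highest cell of 2857 CPM. Young and old mOPr followed at 313 and 134 CPM, then MSC-L at 110 and 73.6 CPM and OPr at 82.8 and 54.8 CPM. A single cell held 49.8% of the counts of young mOPr and 51.2% of those of young OPr, and without the highest cells mOPr stood at 168 and 84.04 CPM and OPr at 41.03 and 33.8 CPM. AEC and SEC stayed under 8 CPM. Vcan was thus mesenchymal. In MSC-L about as many cells had a count of Vcan (25 of 53 young and 29 of 58 old) as of Has1 (24 and 26), but its summed level was higher than that of Has1. Of the 22 MSC-S with Has2 at 10 CPM or more, 21 had Vcan at that level, a joint share of 17.8% beside a product of the single shares of 11.1%.

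Tnfaip6 encodes TSG-6, which moves heavy chains of inter-alpha-inhibitor onto hyaluronan. It was at 350 CPM in young MSC-S (344 to 357), with cells from 0 through a median of 8.99 to 6535 CPM, and at 142 CPM in old MSC-S (139 to 146), with a median of 1.21 and a highest cell of 3047 CPM (93.1 CPM without it). Young and old mOPr were at 210 and 117 CPM, where 1 young cell held 86.5% of counts (29.7 CPM without it), OPr at 27.1 and 11.5 CPM (14.6 and 4.89 without the highest cells), and the other groups at 5.44 CPM or less. Of 50 MSC-S with Tnfaip6 at 10 CPM or more, 47 had Has1 at that level, a joint share of 39.8% beside a product of 34.1%.

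Other binding proteins divided by population. Acan, the aggrecan of cartilage, was at 3067 CPM in young and 255 CPM in old OPr, and its link protein Hapln1 at 1735 and 155 CPM (153.9 and 81.9 CPM for these genes in old OPr without the highest cells). Both are also in the chondrocyte list, which summed to 51606 and 7077 CPM in the same groups. Ptx3, a pentraxin that crosslinks the hyaluronan matrix with TSG-6, was highest in MSC-L, at 248 CPM in young and 434 CPM in old cells. Itih5, of the heavy-chain family, was found in all groups, from 135 CPM in old AEC (89.2 without the highest cell) to 725 CPM in old MSC-S. Itih3 was almost confined to SEC among the 12 groups, at 14.0 CPM in young and 71.1 CPM in old cells, against 2.48 CPM or less elsewhere. A single cell held 35.6% of the young and 43.9% of the old counts, and without it SEC stood at 9.10 and 40.7 CPM. Acan, Hapln1, Ptx3 and Cemip are also guide genes of mesenchymal clusters.

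Cd44, the main cell-surface receptor for hyaluronan, was highest in old MSC-S and varied among the other mesenchymal cells of the endosteum. It was at 392 CPM in young MSC-S (385 to 399), with cells from 0 through a median of 212 to 2210 CPM, and at 726 CPM in old MSC-S (718 to 735), with a median of 561 and a highest cell of 3600 CPM. The log2 ratio in MSC-S was 0.89, and it was 0.88 in range 1 and 0.85 in range 2. Counts were found in 55 and 58 of 59 cells, and both ages overlapped. Young mOPr were at 282 CPM with a median of 165, and old mOPr at 46.8 CPM with a median of 1.76 (25.8 without the highest cell). MSC-L stood at 13.4 CPM in young cells (5.78 without the highest) and 40.1 CPM in old cells.

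In OPr, Cd44 moved with blood markers. Young OPr were at 103 CPM with a median cell of 1.57 and a highest of 701 CPM, and old OPr at 537 CPM with a median of 42.1 and a highest of 5565 CPM (331 CPM without it). The 8 old OPr with at least 7 blood markers were at 1783 CPM of Cd44 and held 83.2% of its counts, while the other 21 were at 121 CPM. Without those 8 cells the log2 ratio of old over young was 0.23 in place of 2.37. In old MSC-L, 1 cell with blood markers held 28.8% of Cd44 counts, and without it the ratio was 1.06 in place of 1.51. That ratio was 2.71 in range 1 and 0.39 in range 2, so it was not 2-fold in range 2.

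Endothelial cells held little Cd44. AEC were at 42.1 CPM in young and 26.5 CPM in old cells. The AEC sums hid opposite directions, at 31.3 against 1.51 CPM in range 1, 37.2 against 0.453 CPM in range 2 and 72.96 against 141 CPM in range 3. SEC were at 11.9 and 11.2 CPM. In young SEC the 12 cells with mesenchymal markers held 98.5% of its counts and the other 58 cells were at 0.226 CPM. In old SEC 1 cell without those markers held 66.8% of the counts (3.74 CPM without it), so that the log2 ratio of old over young was -0.08 with all cells and 3.41 without the cells with mesenchymal markers. Among the endothelial clusters, E5 was highest at 131 CPM.

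Lyve1, the receptor that marks lymphatic vessels and some macrophages, was nearly absent. It had 264 counts in 9 of 661 cells (1.36%, 0.624% to 2.57%), and 5 cells reached 10 CPM. The highest of them were a young mOPr at 138 CPM, an old MSC-S at 119 CPM and a young AEC at 89.9 CPM, and each had Ptprc at 0. Old SEC had 0 counts in 71 cells and young SEC had 2 counts in 70. The list of 6 lymphatic markers was mixed. Ccl21a was at 0 in 11 of the 12 groups and Prox1 at 13.6 CPM or less. Young SEC held Flt4 at 1796 CPM and Mmrn1 at 245 CPM, old SEC held them at 1480 and 157 CPM, and Pdpn reached 165 CPM in old MSC-S and Reln 126 CPM in young OPr.

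SEC instead carried the scavenger receptors that clear hyaluronan. Stab2, the endocytic receptor also called HARE, was at 7177 CPM in young and 5875 CPM in old SEC, and Stab1 at 1829 and 1552 CPM. In AEC, Stab2 was at 217 CPM in young and 9.35 CPM in old cells, the latter with 81.3% of counts in 1 cell (1.76 CPM without it), and Stab1 at 339 and 114 CPM. Of 141 SEC, 128 had Stab2 at 10 CPM or more, 87 had Hyal2 and 80 had both. Stab1 and Stab2 are guide genes of endothelial clusters. Tlr2 and Tlr4, receptors reported to bind hyaluronan fragments, were both higher in old than in young OPr, at 185 against 33.1 CPM and 61.9 against 13.2 CPM (40.6 against 6.36 for Tlr4 without the highest cells), in the group with the 8 blood-marked cells.

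The clusters showed the same genes at finer grain. Cluster values are a description only, since cells were clustered on these transcripts and Has1 and Cd44 are guide genes. Has1 was highest in M16 at 5051 CPM, then M9 at 3499, M7 at 3270, M8 at 1849 and M6 at 1635 CPM, all made of MSC-S but for 1 mOPr in M16. Vcan split these clusters, at 816 CPM in M7, 734 in M9 and 25.6 in M16. M16 thus combined the highest Has1 with low Vcan, and it also held Cd44 at 837 CPM and Prg4 at 152867 CPM. Prg4 was at 2378 CPM in M9 and 2296 CPM in M7. Has2 was highest in M7 at 169 CPM. Tnfaip6 was highest in M12 at 426 CPM, with M7 at 383 and M6 at 342 CPM.

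By age within clusters, M16 held Has1 at 3340 CPM in 15 young and 6239 CPM in 21 old cells, and Cd44 at 629 and 982 CPM. M7 went the other way for Has1, at 5212 CPM in 9 young and 353 CPM in 6 old cells. In library range 1, single M16 cells were at 4526, 2498 and 4400 CPM of Has1 in young mice. The old M16 cells of that range were at 1.90, 3259 and 6.10 CPM, so the M16 values of Has1 differed between ranges. M9 held 10 old cells and no young ones, and M15 held 17 young cells and no old ones. Among the endothelial clusters, Hyal2 was highest in E7, the cluster of SEC, at 253 CPM, with E4 at 171 and E3 at 166 CPM. Has3 was highest in E5 at 22.5 CPM.

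**Figure D3:**
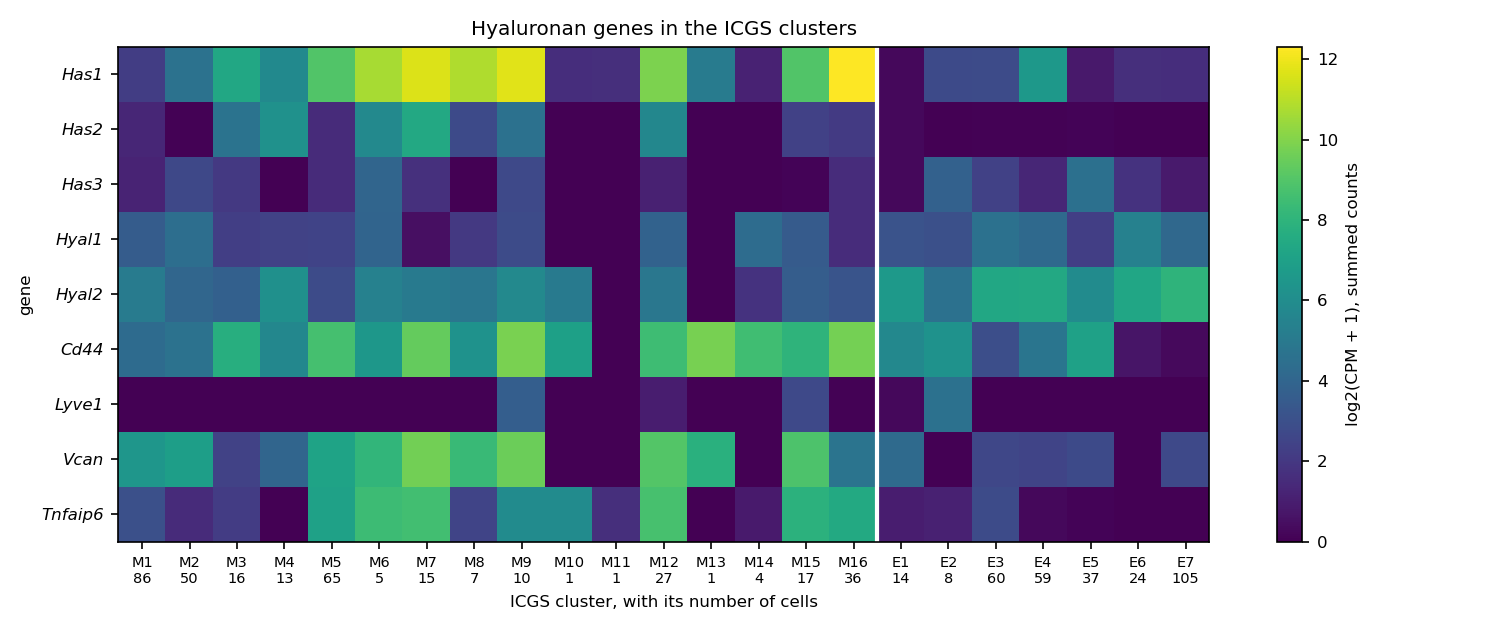
Level of the 9 genes (log2 of CPM plus 1, summed counts) in the 16 mesenchymal (M) and 7 endothelial (E) ICGS clusters, with the number of cells under each. Has1 peaked in M16 and Vcan in M7 and M9, while Hyal2 was highest in E7. M10, M11 and M13 hold 1 cell each.

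For the comparison of ages, a gene was tested in a population when it had at least 100 counts in at least 5 cells over both ages, and it was called when the log2 ratio of summed CPM, with 1 CPM added, was at least 1 in size, which is 2-fold. Of 54 pairs of gene and population, 39 could be tested and 17 were called, 10 of them higher and 7 lower in old cells. In MSC-L 4 of 7 tested members were called, all higher in old cells, beside 25.4% of all tested genes. In MSC-S 2 of 8 were called beside 19.7%, in mOPr 3 of 6 beside 44.5%, in OPr 5 of 7 beside 45.2%, in AEC 3 of 7 beside 21.1%, and in SEC 0 of 4 beside 20.7%. The member counts were not tested against these shares. Cluster membership also differed between the ages. Of AEC, 59.5% of young and 74.4% of old cells were AEC-like (clusters E3 and E4). Cluster M2, with 35 MSC-L, 12 mOPr and 3 OPr among its 50 cells, held 14 young and 36 old cells. These numbers pool the populations and do not give the shift within MSC-L. In SEC, 59 of 70 young and 44 of 71 old cells belonged to E7. In these cells Hyal1 was at 9.77 and 25.8 CPM and Hyal2 at 199 and 318 CPM.

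Higher in old cells were Has1 in MSC-L, OPr and AEC, Has2 in OPr, Has3 in MSC-L and MSC-S, Hyal1 in MSC-L, Hyal2 in mOPr, and Cd44 in MSC-L and OPr. Lower in old cells were Hyal1 in OPr, Cd44 in mOPr, Vcan in mOPr and AEC, and Tnfaip6 in MSC-S, OPr and AEC. Synthases were called in 1 direction over all cells, and Tnfaip6 and Vcan in the other. Without the highest cell of each age the counts turned to 8 higher and 9 lower, with Has1 at -1.76 in OPr and -1.32 in mOPr. Of the 17, 14 had the same sign in every library range that held 5 or more young and 5 or more old cells, 12 were 2-fold without the highest cell of each age, and 4 were 2-fold in every range. Cd44 in mOPr and in OPr met both of the latter conditions. The counts by range and without the highest cells were made for the members alone. They lack the share of all genes and so do not set the members apart.

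Among the synthases, the log2 ratio of Has1 was 2.09 in OPr, but -1.76 without the highest cell of each age, and 0.17 in range 1 against 2.17 in range 2. In AEC it was 3.77, and without the 4 AEC with mesenchymal markers 1.36, with 0.72, 1.98 and 6.02 in ranges 1 to 3. In MSC-L it was 1.54 at levels of 2.02 and 7.74 CPM, and 0.95 in range 2. The ratio of Has2 in OPr was 1.47, and 0.22 without the highest cells. Has3 had ratios of 1.46 in MSC-L and 1.15 in MSC-S at levels under 6 CPM, with 0.83 in MSC-L without the highest cells and 0.00 in range 1 of MSC-S. In young MSC-S 1 cell held 86.5% of the Has3 counts. All the called synthase ratios thus rested on low levels or few cells. The old and young OPr also belonged to different clusters. Of 44 young OPr, 36 were OPr-like, 5 MSC-S-like and 3 MSC-L-like, and of 29 old OPr the numbers were 19, 0 and 10, while Cxcl12 in OPr was at 4525 CPM in young and 19709 CPM in old cells. Within OPr-like OPr, Cd44 was at 112 CPM in young and 949 CPM in old cells (85.3 and 592 without the highest cells), and Has1 at 85.5 and 792 CPM (22.7 and 3.04). These OPr-like cells also differed in cluster between the ages. Cluster M3, made of OPr alone, held 15 young cells and 1 old cell, and its chondrocyte list summed to 110762 CPM. The 8 old OPr with blood markers held 83.2% of the Cd44 counts of old OPr, and the 10 MSC-L-like ones held 317 of 11487. Most Cd44 counts of OPr-like old OPr thus lay in blood-marked cells. The part of cluster membership in the 5 called ratios of OPr was not tested.

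Cd44 in mOPr was the called ratio that stayed 2-fold under each of the 10 alternatives that gave it a value, which did not include the grouping by cluster identity. Not all of these could move it. No mOPr carried at least 7 blood or 7 endothelial markers, so leaving out such cells changed nothing, and dropping the filter changes no ratio. The ratio was -2.57 over all cells, -2.20 in range 1, -2.85 in range 2 and -3.22 without the highest cells. Cluster membership moved with it. Of 26 young mOPr, 16 belonged to the MSC-S-like clusters M6 to M16, 8 to the OPr-like clusters M3 to M5 and 2 to the MSC-L-like clusters M1 and M2, and the 26 old mOPr were 0, 12 and 14. Cd44 was at 383 CPM in the 16 MSC-S-like young cells, at 114 CPM in young and 90.5 CPM in old OPr-like cells, and at 7.45 CPM in the 14 MSC-L-like old cells. In OPr-like mOPr 1 cell held 75.9% of the young and 50.7% of the old counts, and without it the levels were 34.2 and 47.7 CPM, so these cells do not fix a direction. Cxcl12 in mOPr was at 552 CPM in young and 18595 CPM in old cells. Prg4 was at 3925 and 94.0 CPM, and the chondrocyte list at 12061 and 743 CPM. The part of cluster membership and of these cell types in the ratio was not tested.

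Vcan in mOPr had a ratio of -1.22, with -0.78 in range 1, -1.49 in range 2 and -0.99 without the highest cells. Within OPr-like mOPr it ran the other way, at 49.5 CPM in young and 234 CPM in old cells (21.6 and 136 without the highest cells). In AEC its ratio of -1.76 came from levels of 7.83 and 1.61 CPM and turned to 0.85 in range 3. Hyal2 in mOPr had 1.37 with -0.88 in range 1 and 3.97 in range 2, and 334 of the 335 old counts lay in MSC-L-like cells. In OPr its ratio of 0.74 became 1.15 without the 8 old cells with blood markers. Hyal1 had 1.35 in MSC-L, with 0.78 in range 1 and 0.85 without the highest cells, and -1.43 in OPr, with -0.87 in range 1.

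Tnfaip6 in MSC-S, where its level was highest, had a ratio of -1.30, with -2.93 in range 1 and -0.89 in range 2. In OPr it was -1.17, with -3.66 and -0.14, and -0.78 without the 8 old cells with blood markers. In AEC it was -2.26 at levels of 4.76 and 0.201 CPM and turned to 0.96 in range 3. In mOPr, where it was not called, the ratio was -0.83, with 2.80 in range 1 and -1.92 in range 2. Without the highest cell of each age it turned to 1.46, at 29.7 against 83.4 CPM. The sign in MSC-S was thus the same in both ranges and its size was not.

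**Figure D4:**
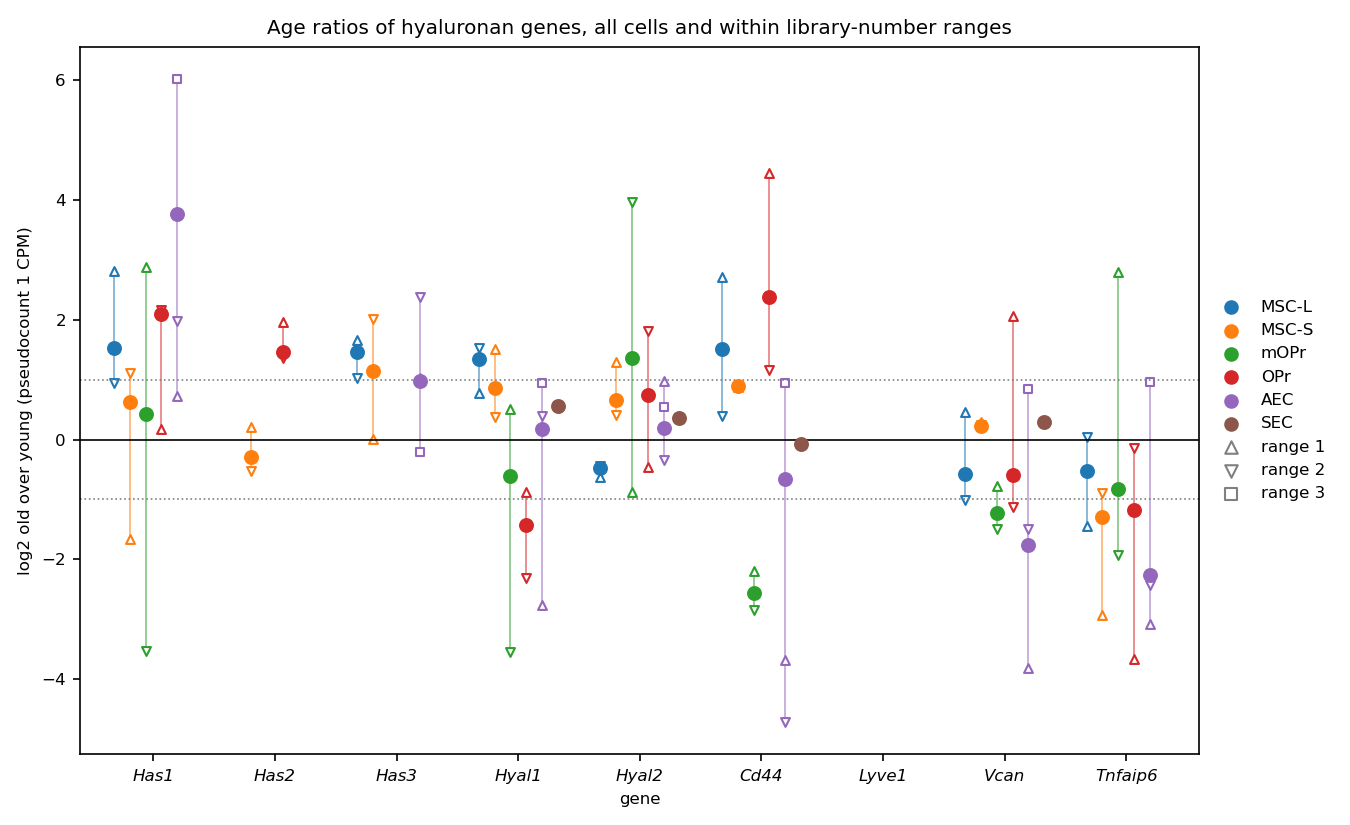
Log2 ratio of old over young for each tested gene and population (filled circles, summed CPM with 1 CPM added) and the same within library ranges 1 to 3 (open symbols, joined by a line), with dotted lines at 2-fold. Cd44 in mOPr stayed between -2.20 and -2.85, while Has1 in mOPr ran from -3.53 to 2.88.

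Over the 46 genes of the 5 pathway lists, the old over young medians differed between populations. In mOPr 13 of 27 tested genes were lower and 4 higher in old cells, with a median log2 ratio of -0.83, beside 19.8% lower and 24.7% higher and a median of 0.11 over all tested genes. In OPr 11 of 33 were lower and 7 higher, beside 19.6% and 25.6% of all genes (median -0.48, all genes 0.14). In AEC 8 of 29 were lower and 2 higher, beside 11.74% and 9.33% (-0.12 and -0.03). MSC-L had 1 of 25 lower and 5 higher, beside 11.5% and 13.9% (0.15 and 0.01), MSC-S 4 of 31 lower and 3 higher, beside 11.1% and 8.65% (0.33 and -0.06), and SEC 3 of 27 lower and 3 higher, beside 7.56% and 13.1% (0.11 and 0.05).

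By list, the supply genes of mOPr were lower in old cells in 5 of 8 cases and higher in 1, beside 19.8% and 24.7% of all genes, with a median of -1.08. Ugdh, for example, was at 657 CPM in young (369 without the highest cell) and 180 CPM in old mOPr, and Uap1 at 327 and 160 CPM. The supply sums were highest in MSC-S, and 16 of 26 young mOPr but no old mOPr belonged to MSC-S-like clusters. The part of this shift in the supply genes was not tested. In MSC-S none of the 8 supply genes was called and their median was 0.25. Of the same 8, OPr had 2 lower beside 19.6%, MSC-L 1 lower beside 11.5%, AEC 1 higher beside 9.33%, and SEC 1 lower beside 7.56% and 1 higher beside 13.1%. The AEC gene was Gfpt2, whose log2 ratio of 2.02 became -0.92 without the highest cells. The matrix list was lower in old cells in 6 of 8 tested genes of mOPr, 5 of 6 of AEC, 4 of 7 of MSC-S and 4 of 8 of OPr, beside 19.8%, 11.74%, 11.1% and 19.6% of all tested genes, with medians of -2.32, -1.75, -1.30 and -1.06. It was not lower in MSC-L, with 0 of 5 called and a median of -0.24, nor in SEC, with 1 of 6 lower, 1 higher and a median of -0.01. Acan and Hapln1 were among the lower genes of mOPr, MSC-S and OPr, in step with the chondrocyte list, and Acan also in AEC. Ptx3 was the exception, called higher in old mOPr, MSC-S and OPr, although its ratio in MSC-S went from 1.88 to 0.56 without the highest cells. Its level was highest in MSC-L. MSC-L-like cells were 2 of 26 young and 14 of 26 old mOPr, and 3 of 44 young and 10 of 29 old OPr. Their part in the Ptx3 ratios was not tested.

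The receptor list had 4 of 7 tested genes higher and 2 lower in old OPr, beside 25.6% and 19.6% of all genes. The higher ones were Cd44, Tlr2, Tlr4 and Hmmr, of which Hmmr went from 1.13 to 0.16 without the highest cells. Cd44 went from 2.37 to 0.23 without the 8 old OPr with blood markers. In AEC 3 of 6 were lower beside 11.74%, namely Stab1, Stab2 and Tlr2, in mOPr 2 of 3 beside 19.8%, namely Cd44 and Tlr4, and in SEC 1 of 6 beside 7.56%, namely Tlr4. Other genes highest in SEC were at 39.2 and 8.75 CPM (Mrc1) and 10.1 and 0.287 CPM (Mmrn1) in young and old AEC. Flt4, also highest in SEC, was at 169 and 186 CPM. Of the AEC, 2 young and no old cells belonged to E7, and the part of such cells was not tested. In MSC-L 1 of 4 was higher beside 13.9%, namely Cd44, and in MSC-S 0 of 5 were called. The turnover list had 2 of 6 higher in old MSC-L beside 13.9% (Hyal1 and Cemip2), 2 of 7 higher in old mOPr beside 24.7% (Hyal2 and Cemip), 1 of 7 higher in old MSC-S beside 8.65% (Cemip), 2 of 7 lower in old OPr beside 19.6% (Hyal1 and Cemip), 1 of 7 higher in old SEC beside 13.1% (Hyal3) and 0 of 7 called in AEC. The synthase list, which includes the antisense transcript Has2os, had 2 of 2 higher in MSC-L beside 13.9%, 1 of 4 higher in MSC-S beside 8.65%, 2 of 3 higher and Has2os lower in OPr beside 25.6% and 19.6%, 1 of 2 higher in AEC beside 9.33% and 0 of 1 called in mOPr, and none could be tested in SEC.

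Over the 12 groups of population and age, the genes with profiles most like each member were found among 12983 genes by Pearson correlation of log2 of CPM plus 1. For Has1 they were Pdpn (r of 0.946), Dpt (0.943) and the supply gene Gfpt2 (0.942). For Has2 they were Tbx5 (0.933), Cd44 (0.931) and Slc16a10 (0.924), and for Cd44 they were Has2 (0.931), Ptpn22 (0.917) and Lgals3 (0.914). A synthase and a receptor of the group were thus in each other's lists. This holds for group sums and not for single cells. In old OPr the 8 cells with at least 7 blood markers held 83.2% of Cd44 counts and had Has2 at 0. For Vcan they were Thbs2 (0.974), Matn2 (0.973) and Gas1 (0.972), for Tnfaip6 Gpsm2 (0.974), Mmp2 (0.962) and Myoc (0.957), for Hyal2 Ccdc88c (0.972), Thrsp (0.958) and Magi1 (0.956), and for Hyal1 Gm37342 (0.912), Rpia (0.912) and Dip2b (0.905). Has3 and Lyve1 had under 1000 counts and were left out. Groups share library ranges, and the difference between mesenchymal and endothelial cells enters every such correlation.

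Among the members themselves, Has1 correlated with Cd44 at 0.898 and Has2 at 0.895, and Vcan with Tnfaip6 at 0.892. Hyal2 correlated negatively with Vcan (-0.89) and Tnfaip6 (-0.74), and Hyal1 with Has2 (-0.83). Some of the group levels behind these values rested on 1 cell. The highest cell of a gene held 98.9% of Hyal1 counts in old mOPr, and 74.8% of Has2 and 96.4% of Has1 counts in old OPr. The 8 blood-marked old OPr held 83.2% of Cd44 counts and 0.0311% of Has1 counts. In single MSC-S, Has1 and Cd44 were both at 10 CPM or more in 82 of 118 cells, 69.5% beside a product of 68.9%.

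In the genome (GRCm38) the members lie on 7 chromosomes, with Hyal1 and Hyal2 next to each other on chromosome 9 at 107576927 to 107581710 and 107567945 to 107572779, both on the plus strand. Has2 on chromosome 15 overlaps Has2os on the other strand over 4.30% of its exon bases, and Has3 on chromosome 8 overlaps Chtf8 over 5.52%. As strand was not recorded in counting, reads of these stretches may come from either gene.

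Promoters, from 250 bases before to 50 after the start, were found in RefSeq (GRCm38.p6) for 6 of the 9 members, namely Has1, Hyal1, Hyal2, Cd44, Vcan and Tnfaip6. They were searched on both strands for the AP-1 letters TGACTCA, the CRE letters TGACGTCA, the TATA box as TATAAA, and a pair of NF-kB decamers that differ by a single base. Of 32851 promoters, these were held by 5.20%, 1.79%, 13.6%, 0.155% and 0.0883%. The match in Has1 was TGACGTCA, starting at base 168 of the window, and the match in Tnfaip6 was TGAGTCA, the reverse complement of TGACTCA, starting at base 109. The other 4 promoters held none of these letters. A match describes the letters and is not a binding site. The promoters of Has1 (chr17:17855139-17855438, minus strand) and Tnfaip6 (chr2:52037863-52038162, plus strand) are shown because both genes were highest in MSC-S and 94.0% of MSC-S with Tnfaip6 at 10 CPM or more had Has1, with the matches in capitals.
Has1: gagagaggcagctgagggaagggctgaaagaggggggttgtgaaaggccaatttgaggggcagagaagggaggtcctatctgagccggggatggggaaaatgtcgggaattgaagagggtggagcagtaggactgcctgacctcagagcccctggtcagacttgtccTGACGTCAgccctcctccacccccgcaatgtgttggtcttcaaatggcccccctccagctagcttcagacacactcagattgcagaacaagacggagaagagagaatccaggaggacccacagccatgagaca
Tnfaip6: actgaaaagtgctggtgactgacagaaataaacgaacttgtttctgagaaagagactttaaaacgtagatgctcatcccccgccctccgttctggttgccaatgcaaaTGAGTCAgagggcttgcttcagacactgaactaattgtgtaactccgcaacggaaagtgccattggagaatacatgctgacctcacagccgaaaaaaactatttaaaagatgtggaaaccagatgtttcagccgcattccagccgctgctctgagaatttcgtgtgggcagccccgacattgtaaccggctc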

How the data were processed

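Single cells were sequenced from 12 groups of sorted population and age. Reads had been aligned by the authors using GSNAP against the genome GRCm38.p4 and Ensembl 81. The deposited values are their raw HTSeq counts of genes, made without regard to strand. Repeated symbols among 46078 gene entries (270) were summed, which left 45771 nuclear and 37 mitochondrial genes. All 661 columns matched a labelled cell. The members and lists were chosen with earlier results of these data known. Counts were summed over the cells of a group and scaled to CPM of nuclear counts. Exon lengths and overlaps came from GENCODE M21 on the same assembly. Poisson, Clopper-Pearson and conditional binomial intervals were exact at the 95% level, and a count of 0 stood for up to 3 counts. No test between ages was made. Named genes were the 9 members, the pathway lists, and for each member with at least 1000 counts the 3 genes with the highest Pearson correlation over the 12 groups, among genes with at least 1000 counts and 10 CPM in 1 group. The single markers named come from the marker lists, picked after their values were seen. Alternatives were the mean CPM of cells, median-of-ratios size factors, thinning to 100000 counts, a pseudocount of 0.1 CPM, no filter, each library range alone, leaving out cells with at least 7 of 15 blood markers or of markers of the other lineage, leaving out the highest cell of each age, and ICGS identity groups in place of the sorted populations. The log2 ratio of summed counts and its interval were tested on simulated Poisson counts of MSC-S, without spread between cells. The alternatives, the marker exclusions and the correlations were not tested in this way. Tables were made in Python 3.11.15 using pandas 2.3.3, scipy 1.17.1 and numpy 2.4.6, and figures in matplotlib 3.10.9.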

Additional observations from a re-analysis of the deposited data

Results flagged for a closer look

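The old over young log2 ratio of Cd44 was 2.37 in OPr and -2.57 in mOPr, with every library range of OPr above 0 and every range of mOPr below 0. It stands here because the same gene moved in opposite directions in 2 sorted populations of the endosteum. The difference between the populations was not tested. Without the 8 old OPr with at least 7 blood markers, the ratio in OPr was 0.23, and none of the mOPr carried as many. In mOPr, 16 of 26 young and 0 of 26 old cells belonged to MSC-S-like clusters, and Cd44 in the OPr-like cells was at 114 CPM in young and 90.5 CPM in old mOPr, or at 34.2 and 47.7 CPM without the highest cell of each age.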

How the results depend on the processing

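Of 17 called pairs, 12 kept their direction under every one of the 12 alternatives that gave them a value, and Cd44 in mOPr was also 2-fold in each of the 10 that gave it one, from -3.22 to -2.09. Not all alternatives could move a ratio. Dropping the filter changes none, and the marker exclusions left out no mOPr. The count of called pairs lay between 13 and 19 under 11 alternatives. The share of all genes called was not computed under the alternatives. In library range 3 alone it was 1 of 9 tested pairs, as that range holds only endothelial cells. The log2 ratio reversed to -1.76 for Has1 in OPr without the highest cell of each age. In range 1 it reversed to -0.88 for Hyal2 in mOPr, and in range 3 to 0.85 for Vcan and 0.96 for Tnfaip6 in AEC. In the OPr-like identity group it was 0.04 for Tnfaip6. For Has1 the highest cell held 96.4% of the old and 44.8% of the young counts. The cause of the other 4 reversals was not tested. Size factors shifted the median log2 ratio of all genes most in mOPr, by -0.054. Thinning left out 7 cells. No paired analysis was possible because the labels do not name the mouse of a cell. Each age of a population was 1 sample, so differences between mice, plates and ages cannot be told apart, and groups of 26 to 84 cells leave low transcripts to a few cells.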

Other observations

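Podoplanin (Pdpn), whose profile was the most like that of Has1 over the 12 groups, was at 72.5 CPM in young and 165 CPM in old MSC-S, between 13.1 and 24.6 CPM in OPr and mOPr, and at 1.52 CPM or less in the other groups. Dermatopontin (Dpt), a small matrix protein, was at 579 and 524 CPM in MSC-S and at 94.2 CPM or less elsewhere. Lubricin (Prg4) and Has1 were both common in MSC-S. Of 59 young MSC-S, 47 had both at 10 CPM or more, 10 had Prg4 without Has1 and none had Has1 without Prg4, and of 59 old MSC-S the numbers were 44, 9 and 4. The joint shares of 79.7% and 74.6% were near the products of the single shares, 76.96% and 73.1%. In OPr 4 of 44 young cells had both and 0 of 29 old ones, although 4 old OPr had Has1 alone. Cells with both stood at a median of 1410 CPM of Has1 in young and 3523 CPM in old MSC-S.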
